A study of Mus musculus with 6 samples.

Results

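The genes described here belong to antioxidant defence, glutathione metabolism and the NRF family of transcription factors, measured in mouse iWAT (inguinal white adipose tissue) by bulk RNA-seq. The rule that chose them reads symbols alone and took every symbol that starts with *Gsta*, *Gstm*, *Gstp*, *Gstt*, *Gsto*, *Gstk*, *Mgst*, *Gpx*, *Prdx* or *Txnrd*, together with named NRF-family, glutathione, thioredoxin, superoxide dismutase, catalase, quinone and heme genes. Of the 19509 symbols in the deposited table, 45 met the rule, and 32 of these 45 had enough reads to enter the test, among 9872 rows tested in all. *Nfe2l2*, *Gclc*, *Gclm*, *Gss* and *Srxn1* are also in the rule but had no row analysed here, so neither NRF2 itself nor the enzymes of glutathione synthesis could be followed.

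The series compares *Lexis*-AdKO mice with *Lexis*-AdWT mice after 12 weeks of Western diet, with 3 libraries in each group. Both groups carry the floxed allele (*Lexis* fl/fl) on a C57BL/6 background. AdKO mice also carry *Adipoq*-cre, a Cre recombinase driven by the promoter of the adiponectin gene, and AdWT mice are littermates without Cre. *Lexis* is a long noncoding RNA. The deletion is confined by design to cells that express adiponectin, so macrophages, progenitors, endothelial cells and other cells of the depot keep the gene. The age and sex of these mice are not in the labels. The study calls the libraries of a group biological replicates, and the labels do not name the animal behind each library.

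The targeted gene was taken here to be *4930412L05Rik*, a symbol that neither the labels nor the study's text gives. It had 8, 9 and 8 counts in the 3 libraries with the label AdWT and 21, 11 and 13 counts in the 3 with the label AdKO, so the count of this gene was not lower in AdKO. So few counts, with exons not separated, do not settle whether the allele was deleted, and AdWT and AdKO are used below as names of labels. Total counts ranged from 14470542 to 17882713 per library, and *Scd1* alone took 14.9% to 17.5% of them. Of 14 white adipocyte markers, 10 had a row. The summed level of these 10 was between 66602 and 87978 CPM (read counts scaled to the size of each library by the TMM method), led by *Fabp4*, and *Pnpla2*, a lipase that all adipocytes use, was listed at 0 in all 6 libraries. A count listed at 0 is therefore not read here as absence of expression. It allows up to 3 counts, or 0.179 to 0.206 CPM, and this limit covers counting error only.

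Superoxide dismutases convert superoxide to hydrogen peroxide, which catalase, the glutathione peroxidases and the peroxiredoxins then remove. Glutathione reductase and the thioredoxin reductases use NADPH to restore glutathione and thioredoxin, and the glutathione transferases (GSTs) attach glutathione to lipid peroxidation products and foreign compounds. Many of these genes are targets of NRF2, which binds antioxidant response elements with small MAF proteins. KEAP1 delivers NRF2 to the proteasome, BACH1 occupies the same elements as a repressor, and NRF1 and NRF3 are related factors held in the endoplasmic reticulum. In adipose tissue, fatty acid oxidation and stored lipid make both hydrogen peroxide and reactive aldehydes a constant load.

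The core of the antioxidant response element, TGACNNNGC, was searched on both strands in RefSeq promoter windows of 300 bases (250 before and 50 after the annotated start, build GRCm38.p6). It was found in 12.4% of all 32851 windows and in 14.0% of the 27025 genes that have one. Among members, 39 had a window and 6 of them (15.4%) held a match, a share close to that of all genes. No window was used for *Gsr* or *Hmox1*. The 6 matches are shown because they are the places where the element bound by NRF factors is spelled out next to a member. Capitals mark the core, each run is written 5′ to 3′ on the strand that carries it, and the coordinates are those of the exact match in NCBIM37 (mm9), the build of the counts.
*Sod1*, chr16:90220945-90220965, minus strand: tgagtcTGACCACGCccacct
*Mgst1*, chr6:138088986-138089006, minus strand: gcctccTGACCGTGCcaagcc
*Prdx1*, chr4:116358065-116358085, minus strand: gggggaTGACTCAGCgctttc
*Gstm5*, chr3:107698724-107698744, plus strand: gcccacTGACCACGCggaggg
*Gstm7*, chr3:107734647-107734667, minus strand: aagaccTGACAAAGCgaagcc
*Txnrd1*, chr10:82321853-82321873, minus strand: tcagaaTGACAAAGCaaaaat
The *Prdx1* run also contains TGACTCA, the AP-1 motif, within the same letters. Measured from the RefSeq start of each window, the centre of the core lay 38 bases before the start of *Gstm5*, 52 before that of *Sod1* and of *Mgst1*, 88 before that of *Txnrd1*, 125 before that of *Gstm7* and 129 before that of *Prdx1*. The GENCODE models on NCBIM37 place some starts elsewhere. Against them the *Sod1* and *Prdx1* runs lie upstream of the gene, those of *Gstm7* and *Mgst1* lie in an exon, that of *Gstm5* spans the start of an exon, and that of *Txnrd1* lies in an intron, 25167 bases after the start of its longest model. Of the 6 genes, 5 were tested, and their log2 fold changes (AdKO over AdWT) ranged from -0.31 for *Gstm7* to 0.07 for *Prdx1*. None of the 5 had groups that did not overlap. A match is a description of the sequence and does not show that a factor was bound.

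Together the members accounted for 1.02% to 1.20% of the reads counted per library. *Sod3* held 27.4% of all member counts, *Cat* 24.2% and *Mgst1* 12.4%, so these 3 genes made up 64.0%. Levels were compared between genes as CPM per kb of exon, for the 23 tested members that have a single row. On this scale *Cat* was highest with a mean of 1006 CPM per kb, followed by *Sod1* with 913 and *Sod3* with 834, and the ranges of these 3 overlapped across the 6 libraries. *Mgst1*, a membrane-bound transferase and peroxidase, followed with 666 CPM per kb, and every one of its libraries lay below those of *Sod3*. *Mgst3* (347), *Prdx5* (265) and *Gstm1* (248) came next, with overlapping ranges. At the other end were *Nqo1* (7.37), *Gstm7* (5.99) and *Gstp2* (4.44 CPM per kb). Of the 22 pairs of neighbours in this order, 7 were separated in all libraries.

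**Figure D1:**
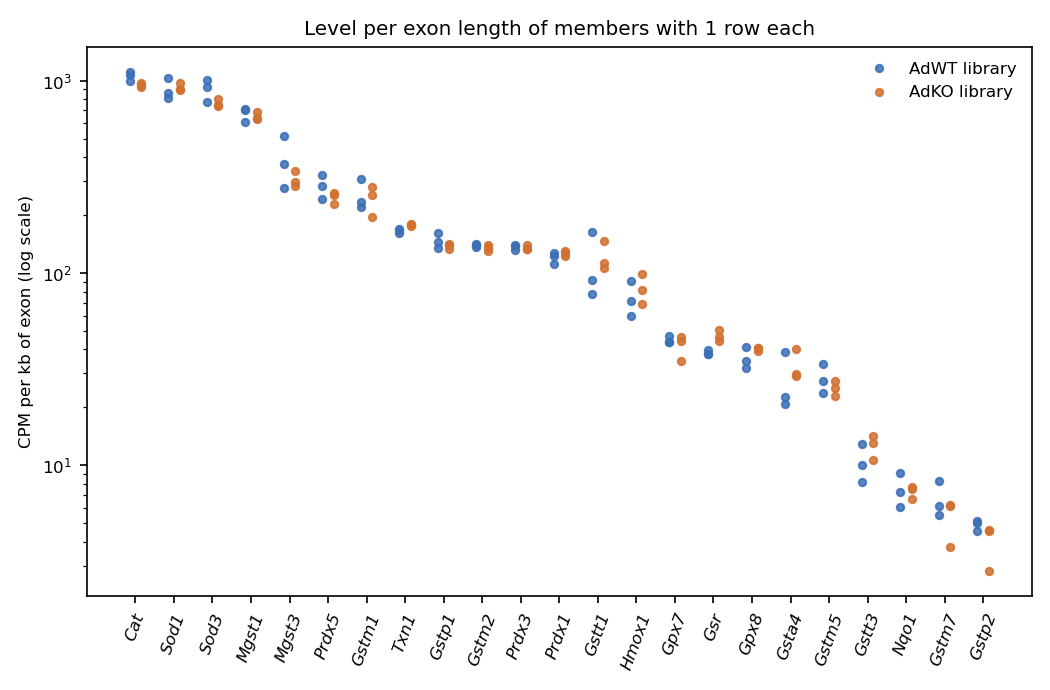
Level of the 23 tested members with a single row, in CPM per kb of exon on a log scale, ordered by mean; each point is 1 library, blue for AdWT and orange for AdKO. *Cat*, *Sod1* and *Sod3* lead with means of 1006, 913 and 834 CPM per kb, *Gstp2* is lowest at 4.44, and the 2 groups overlap for most genes.

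No member passed the test after correction for multiple testing. With the edgeR quasi-likelihood test and *p* values corrected over all rows by the Benjamini-Hochberg method, 0 of 32 members passed 0.05, as did 0% of the 9872 rows. DESeq2 called 27 rows, of which 0 were members, but it gave no adjusted *p* to 9 of its 39 members, *Nfe2l3* among them. At an unadjusted *p* under 0.05, 2 members passed (6.25%), *Nfe2l3* and *Gsr*, both higher in AdKO, beside 5.73% of all rows (2.76% higher and 2.98% lower). At an unadjusted *p* DESeq2 added *Sod3*, lower in AdKO, so that 7.69% of members passed beside 2.42% of its rows. In 4 members (12.5%) the groups did not overlap, higher in AdKO for *Nfe2l3*, *Gsr* and *Txn1* and lower for *Cat*, beside 11.9% of all rows. The median log2 fold change of the 32 members was -0.02 and that of all rows 0.01, with 15 members above 0 and 17 below. In one direction alone, groups without overlap made up 6.16% of all rows for higher and 5.72% for lower.

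**Figure D2:**
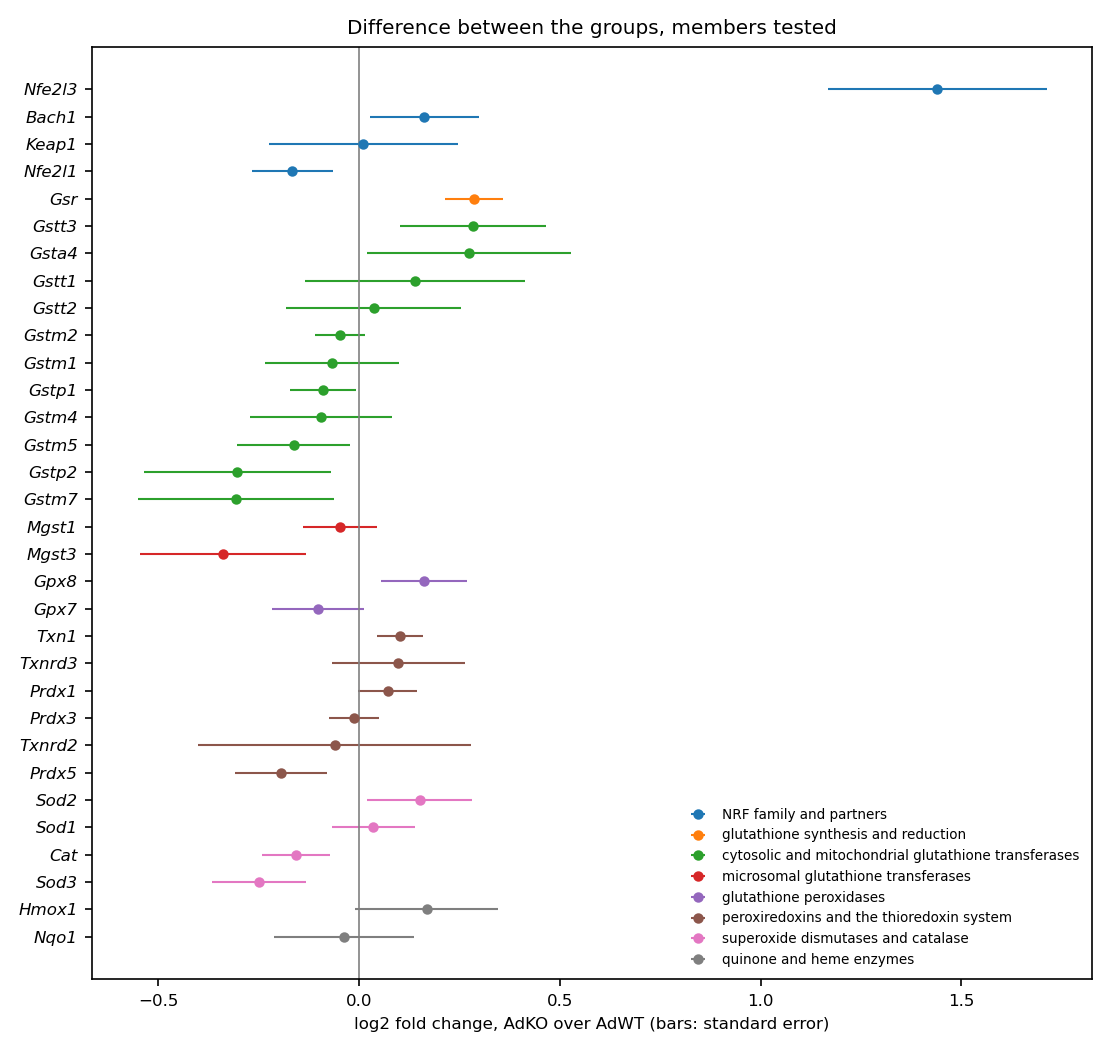
Log2 fold change (AdKO over AdWT) of the 32 tested members, ordered by role, with bars of 1 standard error. *Nfe2l3* stands at 1.44, and the other 31 lie between -0.34 and 0.29.

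Of the NRF-family genes and their partners, 4 had rows and all were tested. *Nfe2l3* encodes NRF3, a membrane-anchored relative of NRF2 (chr6:51382669-51408767, plus strand). Its level was 0.784, 0.776 and 0.668 CPM in the AdWT libraries and 1.72, 1.78 and 2.58 CPM in the AdKO libraries. Every AdKO library lay above every AdWT library, and AdKO replicate 3 was the highest. The log2 fold change was 1.44 (standard error, SE, 0.273), with an unadjusted *p* of 0.000961 and an adjusted *p* of 0.817 in the edgeR quasi-likelihood test. These values rest on few reads, 12, 13 and 10 counts in AdWT and 25, 27 and 43 in AdKO. Without AdKO replicate 3 the log2 fold change was 1.22, and it was higher in AdKO under all 15 alternatives run. An exact two-sided permutation test gave *p* = 0.1, the smallest value that 3 libraries against 3 allow.

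In the other NRF-family members the groups overlapped, and none had an unadjusted *p* under 0.05. *Nfe2l1* encodes NRF1, which drives proteasome genes, and its highest row of 7 had 25.2, 27.6 and 28.5 CPM in AdWT and 22.6, 23.7 and 26.1 CPM in AdKO, with a log2 fold change of -0.17 (SE 0.101). Its groups overlapped at AdWT replicate 1 and AdKO replicate 3. A second tested row of *Nfe2l1*, with 82, 100 and 87 counts in AdWT and 97, 100 and 99 in AdKO, had a log2 fold change of the opposite sign (0.16, SE 0.148), and with all rows summed the value was -0.10. *Bach1*, the repressor, had 40.0, 36.5 and 27.9 CPM in AdWT and 38.0, 40.1 and 38.9 CPM in AdKO (log2 fold change 0.16, SE 0.135), with AdWT replicate 3 alone set apart at the low end. Its log2 fold change was 0.02 without that library and 0.28 without AdWT replicate 1. *Keap1*, the adaptor that sends NRF2 to degradation, was at 5.88 to 8.77 CPM in AdWT and 5.59 to 9.06 CPM in AdKO (log2 fold change 0.01, SE 0.235). Its sign changed with the scaling, so no direction is given for it.

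*Gsr*, glutathione reductase, was the only member of glutathione synthesis and reduction with a row (chr8:34762995-34808635, plus strand). It had 103.7, 109.9 and 104.7 CPM in the AdWT libraries and 121.8, 138.5 and 127.9 CPM in the AdKO libraries. The 3 AdWT libraries lay close together, and all 3 AdKO libraries were above them. The mean was 106 ± 3.36 CPM in AdWT and 129 ± 8.47 CPM in AdKO (SD, n = 3 each). The log2 fold change was 0.29 (SE 0.0721), with an unadjusted *p* of 0.00484 and an adjusted *p* of 0.817 in the edgeR quasi-likelihood test. It stayed between 0.23 and 0.33 with each library left out in turn, and its adjusted *p* over all alternatives run ranged from 0.392 to 0.998. The exact two-sided permutation *p* was 0.1. The gene contains the small nucleolar RNA *SNORA48* on the same strand, whose reads cannot be told apart from its own in these counts.

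**Figure D3:**
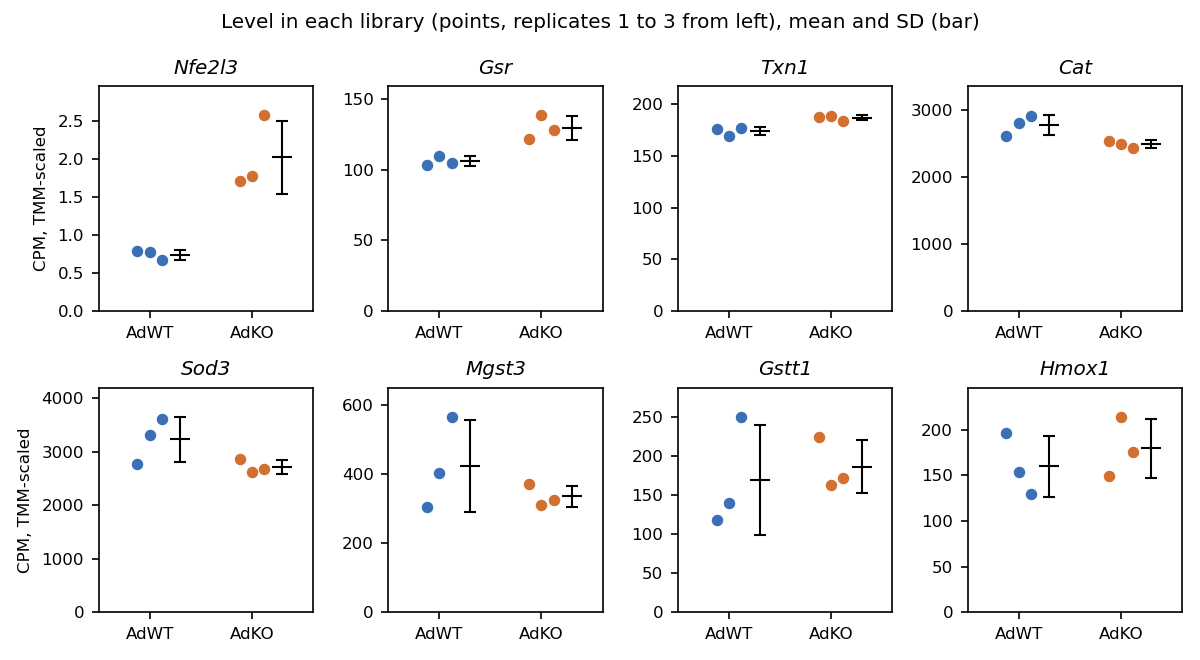
Level in CPM of 8 members in each library (points, replicates 1 to 3 from left to right), with the group mean and SD as bars; axes start at 0. *Nfe2l3*, *Gsr* and *Txn1* are higher in all 3 AdKO libraries and *Cat* is lower in all 3, while AdWT replicate 3 is highest for *Sod3*, *Mgst3* and *Gstt1* and lowest for *Hmox1*.

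Among the superoxide dismutases and catalase, the log2 fold changes of *Cat* and *Sod3* were below 0 and those of *Sod1* and *Sod2* above 0. *Cat*, the peroxisomal enzyme that splits hydrogen peroxide (chr2:103294006-103325317, minus strand), had 2616, 2801 and 2901 CPM in AdWT and 2541, 2493 and 2426 CPM in AdKO. All 3 AdKO libraries lay below all 3 AdWT libraries, with a narrow gap between AdWT replicate 1 and AdKO replicate 1. The log2 fold change was -0.16 (SE 0.0845) with an adjusted *p* of 0.853 in the edgeR quasi-likelihood test. *Sod3*, the secreted dismutase of the extracellular matrix, had 2780, 3309 and 3611 CPM in AdWT and 2862, 2621 and 2679 CPM in AdKO. AdWT replicate 1 lay within the AdKO range, and the other AdWT libraries were above it. The log2 fold change was -0.25 (SE 0.116) with an adjusted *p* of 0.851, and it was -0.35 without AdWT replicate 1 and -0.17 without AdWT replicate 3. *Sod1*, the cytosolic enzyme, was at 524 to 665 CPM in AdWT and 575 to 631 CPM in AdKO, and *Sod2*, the mitochondrial one, at 113 to 141 and 119 to 162 CPM. Both overlapped between the groups, with log2 fold changes of 0.04 (SE 0.103) for *Sod1* and 0.15 (SE 0.130) for *Sod2*.

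The summed level of the white adipocyte markers rose with *Cat* and *Sod3* across the AdWT libraries, but not every marker did. The sum was 70802, 82261 and 87978 CPM in AdWT replicates 1, 2 and 3, and 71419, 68436 and 66602 CPM in AdKO. *Car3* alone went from 13723.3 CPM in AdWT replicate 1 to 24084.5 CPM in replicate 3. *Adipoq*, *Lep*, *Fabp4*, *Lipe* and *Pparg* were also higher in replicate 3 than in replicate 1. *Lpl* (10913, 13029 and 9278 CPM in AdWT), *Cd36* and *Plin1* were lower. In 7 of the 9 adipocyte markers tested the log2 fold change was below 0, with a median of -0.23, and 2 of them, *Lep* and *Cd36*, had an unadjusted *p* under 0.05 (22.2%; all rows 5.73%). In 3 of the 9 (33.3%; all rows 11.9%), *Fabp4* among them, the AdKO libraries all lay below the AdWT libraries. *Cd36* was read from the largest of its 5 rows, with only 131 to 360 counts per library. In bulk tissue, fewer cells of a type and less RNA per cell cannot be told apart. The part of adipocyte content in the levels of *Cat* and *Sod3* was not tested.

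No glutathione transferase passed the test. The median range of the 13 tested transferases over the AdWT libraries was 0.50 on the log2 scale, beside 0.39 over all rows. For 12 of them (92.3%) it exceeded the difference between the groups, as it did for 85.9% of all rows. Of the 17 cytosolic and mitochondrial members, 11 were tested, 4 with a log2 fold change above 0 and 7 below, with a median of -0.07 and a range from -0.31 to 0.28. None had groups that did not overlap or an unadjusted *p* under 0.05. *Gstm1*, the most abundant, had 309, 326 and 427 CPM in AdWT and 390, 271 and 353 CPM in AdKO, so the groups overlapped, with AdWT replicate 3 highest and AdKO replicate 2 lowest. *Gstt1*, of the theta class, had 118, 140 and 250 CPM in AdWT and 225, 162 and 172 CPM in AdKO. Its AdWT values differed by a factor of 2.11 between replicates 3 and 1, against a log2 fold change of 0.14 (SE 0.274) between the groups. *Gsta4*, which conjugates the lipid aldehyde hydroxynonenal, had 19.8, 21.5 and 37.1 CPM in AdWT and 38.6, 28.4 and 27.8 CPM in AdKO (log2 fold change 0.27, SE 0.254). In both genes AdWT replicate 3 and AdKO replicate 1 were high, while AdWT replicates 1 and 2 were low.

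The largest positive value in the class was that of *Gstt3*, at 0.28 (SE 0.182), with 26.5, 21.5 and 33.7 CPM in AdWT and 37.1, 34.4 and 28.0 CPM in AdKO. It was 0.13 without AdWT replicate 2 and 0.46 without AdWT replicate 3. *Gstt3* overlaps the protein-coding gene *RP23-333M15.8* on the same strand, so its reads may include those of that gene. The largest negative values were those of *Gstm7* at -0.31 (SE 0.245) and *Gstp2* at -0.30 (SE 0.233). *Gstm7* was lowest in AdKO replicate 2, at 5.98 CPM against 8.82 to 13.2 CPM in AdWT, and *Gstp2* in AdKO replicate 3, at 2.10 CPM against 3.41 to 3.85 CPM in AdWT. Each therefore owed much of its value to 1 library, and without that library the log2 fold changes were -0.11 and -0.10. *Gstm2* was even across libraries, at 229 to 238 CPM in AdWT and 218 to 234 CPM in AdKO. The mu and pi class genes are close copies of each other, so reads may have been split among them.

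Both microsomal transferases were tested, and both had log2 fold changes below 0 without passing the test (that of *Mgst1* was above 0 with library size scaling alone). *Mgst3*, a membrane enzyme with transferase and peroxidase activity, had 304, 404 and 566 CPM in AdWT and 371, 312 and 324 CPM in AdKO. AdWT replicate 3 was far above the rest, and AdWT replicate 1 was the lowest of all 6. Its log2 fold change, -0.34 (SE 0.208), was the most negative among the members. It was -0.08 without AdWT replicate 3 and -0.53 without AdWT replicate 1. *Mgst1* had 1224, 1420 and 1442 CPM in AdWT and 1383, 1294 and 1277 CPM in AdKO (log2 fold change -0.05, SE 0.0920), and its AdKO values lay within the AdWT range.

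Of 8 members among the peroxiredoxins and the thioredoxin system, 6 were tested, 3 with log2 fold changes above 0 and 3 below, from -0.19 to 0.10. *Txn1*, thioredoxin (chr4:57956245-57969283, minus strand), had 176, 169 and 177 CPM in AdWT and 188, 189 and 184 CPM in AdKO. Both groups were tight, and all AdKO libraries lay above all AdWT libraries. The difference was small, a log2 fold change of 0.10 (SE 0.0584) with an adjusted *p* of 0.853 in the edgeR quasi-likelihood test. *Prdx5*, a peroxiredoxin of mitochondria and peroxisomes and the most abundant gene of this role, had 520, 604 and 695 CPM in AdWT and 557, 491 and 542 CPM in AdKO (log2 fold change -0.19, SE 0.115). Without AdWT replicate 3 this was -0.09, and without AdWT replicate 1 it was -0.29. It overlaps *Trmt112* on the opposite strand, and the strand setting of the counting is not given in the sources used here. *Prdx1* (0.07) and *Prdx3* (-0.01) had log2 fold changes close to 0 and groups that overlapped.

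The glutathione peroxidases were mostly out of reach of these counts. Of 7 members with a row, 2 were tested, *Gpx7* at 56.4 to 60.9 CPM in AdWT and 45.1 to 59.6 CPM in AdKO, and *Gpx8* at 32.5 to 41.8 and 39.8 to 41.5 CPM. Both are residents of the endoplasmic reticulum. Their log2 fold changes were -0.10 (SE 0.114) and 0.16 (SE 0.107). *Gpx4*, the enzyme that protects membranes from lipid peroxidation, was listed at 1 count in AdWT replicates 2 and 3 and at 0 in the other libraries. How reads shared by several rows were counted is not given in the sources used here, so this near absence of counts is not read as a low level. Of the thioredoxin reductases, which are selenoproteins like GPX4, *Txnrd1* had 0, 6 and 4 counts in AdWT and 6, 8 and 4 in AdKO in the highest of its 5 rows and was not tested. *Prdx2* had 7, 1 and 1 counts in AdWT and 10, 6 and 5 in AdKO, also too few to test. In all, 13 members were not tested, and 6 of these, *Gpx2*, *Gpx5*, *Gpx6*, *Gsta1*, *Gstm6* and *Gstt4*, were listed at 0 in all 6 libraries.

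*Hmox1* and *Nqo1*, widely used readouts of NRF2 activity, did not pass the test. *Hmox1*, heme oxygenase, had 196, 154 and 130 CPM in AdWT and 150, 214 and 175 CPM in AdKO, with a log2 fold change of 0.17 (SE 0.177). The groups overlapped widely, and the value was 0.02 without AdKO replicate 2 and 0.34 without AdWT replicate 1. *Nqo1*, a quinone reductase, was at 9.37 to 14.1 CPM in AdWT and 10.4 to 11.9 CPM in AdKO (log2 fold change -0.04, SE 0.174).

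Macrophage markers followed *Hmox1* across the AdWT libraries. Of 12 markers, 9 had a row, and their summed level was 2036, 1473 and 1005 CPM in AdWT replicates 1, 2 and 3, the same order as for *Hmox1*, and 1716, 2050 and 2124 CPM in AdKO. *C1qc* and *C1qa* were the most abundant, and *Emr1* was listed at 0 in all 6 libraries. Of 7 macrophage markers tested, 6 had a log2 fold change above 0 (median 0.38), and 0 had an unadjusted *p* under 0.05. The part of macrophage content in the level of *Hmox1* was not tested.

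AdWT replicate 3 stood apart for the members as a whole. It was the highest of the 6 libraries for 17 of 32 members (53.1%), where it was highest for 22.2% of all rows, and for 8 of the 13 tested transferases (61.5%). It lay above AdWT replicate 1 in 22 members (68.8%; all rows 49.7%), among them 11 of the 13 transferases. The ratio of AdWT replicate 3 to replicate 1 was 2.11 for *Gstt1*, 1.87 for *Gsta4*, 1.86 for *Mgst3* and 1.34 for *Prdx5*. It was 0.662 for *Hmox1* and 0.697 for *Bach1*, both lowest in AdWT replicate 3. For 26 of 32 members (81.2%) the range within AdWT exceeded the difference between the groups, beside 85.9% of all rows. The median range over members was 0.36 on the log2 scale in AdWT and 0.23 in AdKO, beside 0.39 and 0.34 over all rows. Without AdWT replicate 3, 6 members had an unadjusted *p* under 0.05, all higher in AdKO, namely *Gpx8*, *Gsr*, *Gsta4*, *Gstt1*, *Gstt3* and *Nfe2l3* (18.8%; all rows 4.90%). Without AdWT replicate 1 it was again 6, but *Cat*, *Mgst3*, *Prdx5* and *Sod3* were lower and *Gsr* and *Nfe2l3* higher (18.8%; all rows 11.8%). *Gsr* and *Nfe2l3* were the members found in both. Hepatocyte markers were also uneven in AdWT replicate 3. *Apoa2* was at 2.87, 13.6 and 202 CPM in AdWT and 6.11, 9.80 and 82.7 CPM in AdKO, and *Ttr* and *Tat* were likewise highest in AdWT replicate 3 and next in AdKO replicate 3. Of 10 such markers 6 had a row, with a summed level of 8324 to 13239 CPM in AdWT and 8699 to 14840 CPM in AdKO. This sum was mostly *Hp*, which adipose tissue also makes, and both the sum and *Hp* (7684 CPM) were lowest in AdWT replicate 3, opposite to the other 3 named. *Serpina1a* was listed at 0. The part of such RNA in the members' levels was not tested.

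**Figure D4:**
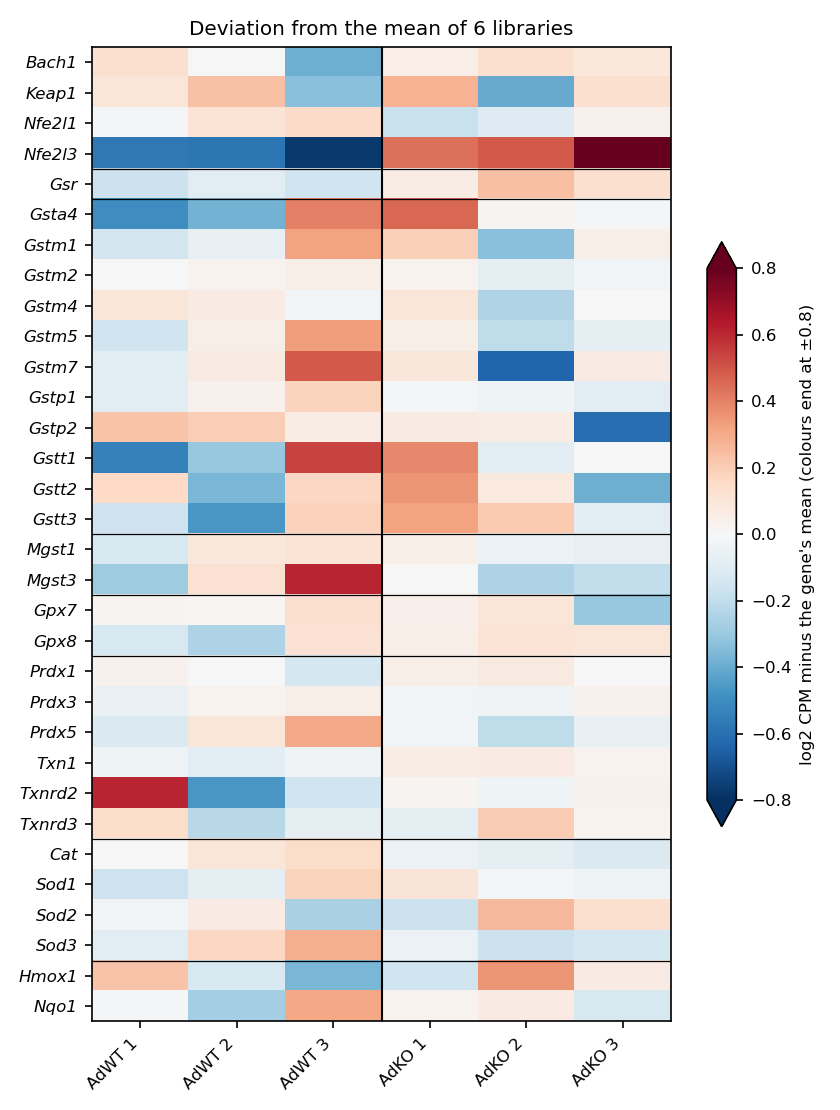
Deviation of each of the 32 tested members from its own mean over the 6 libraries, in log2 CPM (blue below, red above, colours end at 0.8 in either direction); members are grouped by role with lines between roles, and a vertical line parts AdWT from AdKO. AdWT replicate 3 is highest for 17 members, most of them transferases, peroxiredoxins and dismutases, and *Nfe2l3* is low in all AdWT and high in all AdKO libraries.

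Other genes of these pathways were followed in lists. NADPH feeds both glutathione reductase and the thioredoxin reductases, and 10 of 11 genes of NADPH supply had a row. Of the 7 tested, 5 had a log2 fold change below 0. *G6pdx*, the entry enzyme of the pentose phosphate pathway, had 826, 937 and 905 CPM in AdWT and 680, 652 and 785 CPM in AdKO, with no overlap. Its log2 fold change was -0.33 (SE 0.0964), with an unadjusted *p* of 0.00961 and an adjusted *p* of 0.847 in the edgeR quasi-likelihood test. *G6pdx* alone in this list had no overlap (14.3% of the genes tested, beside 11.9% of all rows). It alone had an unadjusted *p* under 0.05 (14.3%, beside 5.73% of all rows). *Gsr* and *G6pdx*, which consume and produce NADPH, had fold changes of opposite sign.

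In glutathione turnover, 11 of 21 genes were tested, 6 above and 5 below 0. *Lap3*, a leucine aminopeptidase, was lower in AdKO (176.7, 197.4 and 201.0 CPM against 165.5, 168.7 and 163.1 CPM; log2 fold change -0.21, SE 0.0712), and *Glrx*, a glutaredoxin, was higher (16.7, 15.2 and 12.4 CPM against 17.2, 20.4 and 20.7 CPM; log2 fold change 0.39, SE 0.148). Among 13 further thioredoxin and repair genes tested, *Sesn2*, a stress-induced sestrin, was at 137, 164 and 166 CPM in AdWT and 127, 114 and 121 CPM in AdKO, with a log2 fold change of -0.37 (SE 0.0922). *Txnl1*, a thioredoxin-like protein, was at 8.22 to 11.2 CPM in AdWT and 11.6 to 13.1 CPM in AdKO, with a log2 fold change of 0.36 (SE 0.153). None of these 4 genes overlapped between the groups. With *Slc3a2* and *Aifm2*, both lower in AdKO, groups without overlap came to 3 of 11 genes tested in the first list (27.3%) and 3 of 13 in the second (23.1%), beside 11.9% of all rows. Each of the 4 had an unadjusted *p* under 0.05 (18.2% and 15.4% of the lists, beside 5.73% of all rows), but their adjusted *p* values lay between 0.817 and 0.851 in the edgeR quasi-likelihood test. *Txnl1* lost the unadjusted call with DESeq2 (0.0783), with RLE (0.0549) or upper quartile scaling (0.0534) and with a filter that keeps rows of 1 count or more (0.0549). With single libraries left out, *Lap3* lost it without AdWT replicate 2 or 3 or AdKO replicate 1 or 3 (0.0546 to 0.0684), *Glrx* without AdWT replicate 2 or 3 or AdKO replicate 2 or 3 (0.0614 to 0.0897), and *Txnl1* without any library but AdWT replicate 2 (0.0666 to 0.142).

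In heme and iron handling, 8 of 12 genes were tested. *Slc48a1*, a heme transporter, had 81.1, 77.2 and 68.1 CPM in AdWT and 58.1, 53.1 and 61.9 CPM in AdKO, with a log2 fold change of -0.39 (SE 0.0948). *Steap4*, a metalloreductase, had 889, 996 and 900 CPM in AdWT and 1097, 1130 and 1075 CPM in AdKO, with a log2 fold change of 0.25 (SE 0.0780). In both genes the groups did not overlap (2 of 8 tested, 25%, beside 11.9% of all rows). Both had an unadjusted *p* under 0.05 (25%, beside 5.73% of all rows). Their adjusted *p* values, 0.817 and 0.851, missed the threshold in the edgeR quasi-likelihood test. Without AdKO replicate 2 the unadjusted *p* of *Steap4* was 0.0570.

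In the remaining lists no gene had an unadjusted *p* under 0.05. Of 20 genes listed as other NRF2 targets, 13 were tested, 7 above and 6 below 0 (median 0.08). With DESeq2, which also kept rows of few counts, the median of this list was -0.0067. In *Cbr3* and *Akr1b8* (15.4%, beside 11.9% of all rows) the groups did not overlap, both higher in AdKO. Of 15 NRF partners and turnover genes, 9 were tested, 3 above and 6 below 0 (median -0.05). The 25 proteasome subunits tested, which NRF1 is known to drive, had log2 fold changes between -0.13 and 0.14 with a median of 0.01, the same as all rows, and in *Psma5* and *Psmc6* (8%) the groups did not overlap, both higher in AdKO. Of 11 selenium-related genes 8 were above 0 (median 0.04), of 6 oxidant sources 5 were above 0 (median 0.06), and of 3 other transferase relatives all were above 0 (median 0.12), with 0 past an unadjusted *p* of 0.05 in each. Among these only the selenoprotein gene *Vimp* had groups without overlap, higher in AdKO (9.09% of the selenium-related genes tested, beside 11.9% of all rows).

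No marker of skeletal muscle passed correction, but 5 of the 7 tested (71.4%) had an unadjusted *p* under 0.05, beside 5.73% of all rows. The same 5 were lower in AdKO with no overlap (71.4%, beside 11.9% of all rows), while *Neb* and *Ryr1* overlapped. *Ckm* and *Tcap*, at 0 to 4 counts in AdKO, entered the test through their AdWT counts alone, which favours calls in this direction. For the 13 of 16 markers with a row, the summed level was 43.4, 185 and 25.3 CPM in AdWT and 12.8, 9.14 and 15.7 CPM in AdKO. The highest AdWT library was replicate 2. *Ckm*, the muscle creatine kinase, was listed at 0 in all 3 AdKO libraries. The part of muscle RNA in the members' levels was not tested. In every other marker list the summed levels of the groups overlapped. The median log2 fold changes were 0.15 for fibroblasts and progenitors, 0.12 for endothelium, 0.23 for smooth muscle, 0.07 for erythroid cells and -0.37 for lymphocytes. They were -1.14 for hepatocytes and 1.87 for the 2 epithelial markers tested, both lists with single libraries far above the rest. The lymphocyte marker *Cd4*, read from the largest of its 4 rows, had 13.1, 3.70 and 3.67 CPM in AdWT and 2.95, 2.63 and 2.70 CPM in AdKO. Its log2 fold change was -1.30, with AdWT replicate 1 far above the other libraries. Of the 7 lymphocyte markers tested, it alone had no overlap (14.3%, beside 11.9% of all rows). It alone had an unadjusted *p* under 0.05 (14.3%, beside 5.73% of all rows). The epithelial sum stood at 53.4 CPM in AdKO replicate 3 and 22.5 CPM in AdWT replicate 3, and between 1.83 and 2.68 CPM in the other libraries.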

How the data were processed

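Total RNA from iWAT was made into libraries with a KAPA stranded kit, and HISAT2 was used by the authors for alignment to mm9. The counting tool, annotation and strand setting are not given in the sources used here. The authors deposited raw read counts without normalization, in 37024 rows, 17470 of them at 0 in all libraries. Up to 21 rows carry 1 symbol. More than 1 row was found for 44.6% of all symbols and for 15 of the 45 members, and each symbol is represented by its row with the largest total. The submitters' processing notes name DESeq2.

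Counts were filtered with filterByExpr by group, scaled by TMM and compared with edgeR 4.0.16 (glmQLFit, glmQLFTest; R 4.3.3), with Benjamini-Hochberg correction over all rows tested and a threshold of 0.05. CPM values use the TMM library sizes. Standard errors (SE) were obtained from each log2 fold change and its F statistic. With a common biological coefficient of variation of 0.196, replicate spread limits the precision of abundant genes. For exact permutation tests 0.5 was added to CPM before taking log2. Ranges over libraries used log2 CPM with a prior count of 2. No 2 libraries agreed within counting noise (chi-square per degree of freedom of 13.5 or more). The members and lists were chosen with earlier results of these data known. Genes described were NRF-family genes, the most abundant member of each role, members with an unadjusted *p* under 0.05, the 3 largest values in each direction, list genes with an unadjusted *p* under 0.05 and the most abundant markers. *Txn1*, *Cat* and other members were added after their values were seen, for their place among groups without overlap or for the spread they show. Exon lengths and positions came from GENCODE on NCBIM37. Alternatives were DESeq2 1.42.0, scaling by RLE, by upper quartile or by library size alone, a looser filter (1 count or more in any library) and a stricter one (10 counts or more in all), a robust fit, rows of a symbol summed, the replicate number as a block, and each library left out.

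Markers of fibroblasts, endothelium, smooth muscle, epithelium, hepatocytes, erythroid cells and lymphocytes were also summed. These sums overlapped between the groups in every list. No columns of other samples were present, and the ChIRP-seq, snRNA-seq and qPCR data of the study were not used here.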

Additional observations from a re-analysis of the deposited data

How the results depend on the processing

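The number of members with an adjusted *p* under 0.05 was 0 under each alternative run. Over all rows it was 0 with edgeR, 27 with DESeq2, 1 with a looser filter (1 count or more in any library), and 0 to 1 with each library left out. With each library left out, members with an unadjusted *p* under 0.05 numbered 2 to 6 (6.25% to 18.8%), beside 3.20% to 11.8% of all rows. Members whose groups did not overlap numbered 4 to 14. They were 14 without AdWT replicate 1 (43.8%; all rows 31.8%), 10 without AdWT replicate 3 (31.2%; all rows 21.0%), 7 without AdKO replicate 1 or 3 (21.9%; all rows 21.1% and 21.4%) and 4 without AdWT or AdKO replicate 2 (12.5%; all rows 17.9% and 20.0%). The cause was not tested. The sign of *Keap1* turned with DESeq2 (-0.0055), RLE (-0.0022) and upper quartile scaling (-0.0013), and it ranged from -0.15 to 0.18 with each library left out. That of *Mgst1* turned with library size only (0.0022), which moved the median of all rows to 0.05. With each library left out *Gstm1* ranged from -0.1832 to 0.0807 and *Gpx7* from -0.1848 to 0.0137. The labels of both groups share replicate numbers, but same-numbered libraries deviated with correlations of -0.076, -0.132 and 0.33, so the numbers were not taken as pairs. With the replicate block 2 members had an unadjusted *p* under 0.05, 0 an adjusted *p* under 0.05, and the median over members was -0.01. *Nfe2l3* and *Txnrd2* rest on few counts. For the 13 members not tested, low or absent expression, depth and the way reads were counted cannot be told apart.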
